A study of Mus musculus with 8 samples.

Results

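The skin of newborn mice that lacked both pRb and p107 was set against skin that lacked pRb alone, to ask what the loss of p107 adds once pRb is gone. The compared arrays were the 2 titled pRb-/-;p107-/-, named double-loss skin here, and the 2 titled pRb-/-;p107+/+, which are 4 of the 8 arrays of the series, and they were chosen by their titles only. All 22626 probe sets that are not array controls were compared. The other 4 arrays, 2 of pRb+/+;p107-/- and 2 of pRb+/+ skin, entered the estimate of the spread between duplicates and show the same gene loss where pRb was kept. Every array held RNA of whole newborn skin from the FVB strain, pooled from 3 animals of a genotype. Both compared genotypes carry the pRb loss, and the titles of the pRb+/+ arrays leave the p107 genotype unstated. The labels give neither the promoter or recombinase behind the pRb loss nor the skin cells it affects, and they are silent on whether duplicate arrays hold separate pools. P-values here measure the spread between duplicate arrays, which may be technical.

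pRb (gene Rb1), p107 (Rbl1) and p130 (Rbl2) are the pocket proteins, which bind E2F transcription factors and hold down genes for DNA replication until cyclin-dependent kinases phosphorylate them. pRb mainly binds the activating E2F factors, whereas p107 and p130 bind the repressive members E2F4 and E2F5. In mouse epidermis, keratinocytes divide in the basal layer and leave the cell cycle as they move into the spinous and granular layers, and p107 is known to cover part of the work of pRb in these cells.

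The deposited value is a z-score, with mean 0 and SD 1 for each probe set over the 8 arrays. A difference of 1 between genotypes is thus 1 SD of that probe set, and the difference between the means of 2 pairs of arrays cannot exceed 2.65 in size. The scores hold no expression level and no fold change, so the presence of a marker in the tissue cannot be read from them, and a large difference says that the arrays part cleanly, not that the RNA changed strongly. A probe set was called where its adjusted p in limma's linear model was below 0.05.

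The targeted gene was measured first. The first Rbl1 probe set had z-scores of -0.31 and 0.31 in pRb-/-;p107-/- skin and of 1.3 and 1.14 in pRb-/-;p107+/+ skin. Both arrays without p107 lay below both arrays with it, and the difference of -1.22 ± 0.25 (SE of the model over 8 arrays) did not pass the threshold (limma, adjusted p = 0.126). The same probe set was at -1.51 and -1.22 in pRb+/+;p107-/- skin and at 0.08 and 0.21 in pRb+/+ skin, so the double-loss arrays sat near the pRb+/+ level and above the arrays lacking p107 alone. The second Rbl1 probe set had -0.13 and -0.2 in pRb-/-;p107-/- skin against 1.4 and -0.02 in pRb-/-;p107+/+ skin, a difference of -0.85 ± 0.55 (adjusted p = 0.478). Which part of Rbl1 is deleted is not given in the labels, so these probe sets check the titles only as far as the lower score goes. Rb1 was at -1.56 and -1.28 in pRb-/-;p107-/- skin and at -0.22 and 0.36 in pRb-/-;p107+/+ skin, although both carry the pRb loss (difference -1.49 ± 0.27, adjusted p = 0.105). Rb1 was at 0.02 and 0.4 in pRb+/+;p107-/- skin and at 1.21 and 1.07 in pRb+/+ skin, so the pRb-/-;p107+/+ arrays overlapped with arrays that keep pRb. Rbl2, the gene of p130, differed by 1.62 ± 0.9 and 1.12 ± 0.91 in its probe sets (adjusted p = 0.419 and 0.573), and its arrays did not overlap between the genotypes in either.

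Of the 22626 probe sets, 310 were called, which is 1.37%. Higher in pRb-/-;p107-/- skin were 124 (0.548%), and 186 were lower (0.822%). With 1 probe set standing for each gene, 179 of 12393 genes were called (1.44%): 78 rose (0.629%) and 101 fell (0.815%). Counting every probe set with 1 symbol, 274 genes had at least 1 call. The list counts below leave out calls on probe sets that do not stand for a gene. At an unadjusted p below 0.05 there were 4345 probe sets, against 1131 that the number of tests alone would give. The calls rest on the spread pooled over all 8 arrays and on limma's unmoderated test: the moderated test and a fit to the 4 pRb-/- arrays each called 0 (unadjusted p was below 0.05 for 4907 and 2822), and leaving out any single array left between 0 and 17. All 310 kept their sign in each of these fits, which is no separate support for the calls. The moderated test, the fit to the pRb-/- arrays and leaving out an array that keeps pRb cannot change the difference itself. The heat map of called probe sets shows the scores behind the calls.

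**Figure D1:**
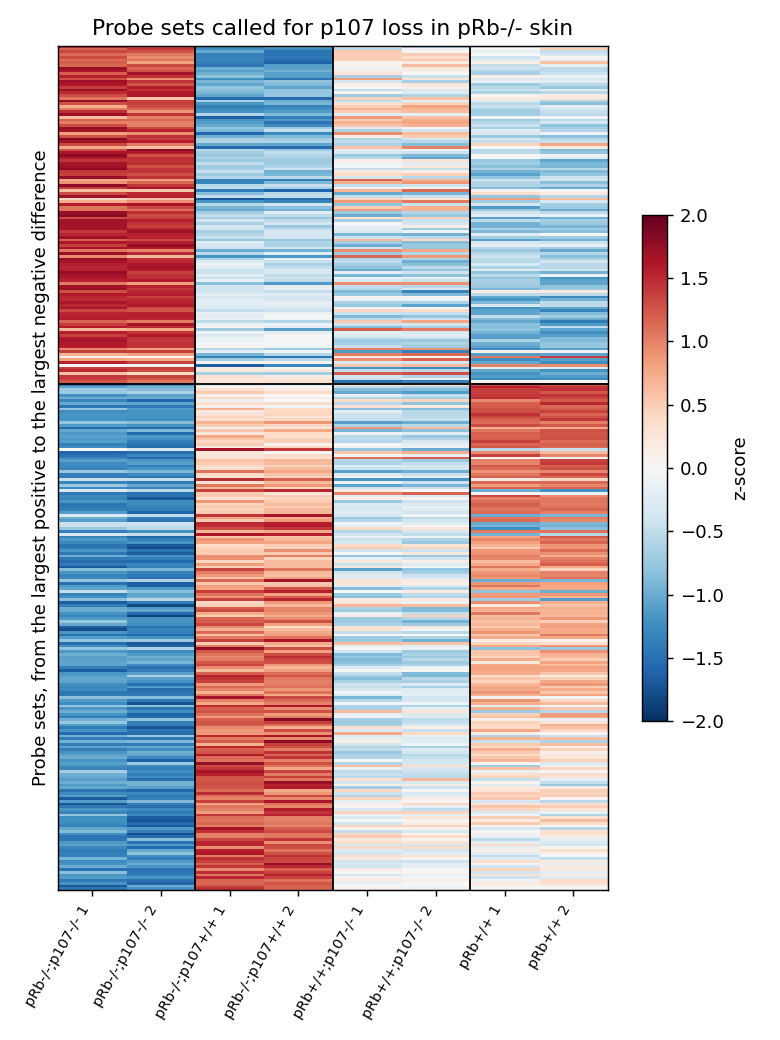
Heat map of the z-scores of the 310 called probe sets (rows, from the largest positive to the largest negative difference) on the 8 arrays (columns, 2 for each genotype). The horizontal line parts the 124 that were higher in pRb-/-;p107-/- skin from the 186 that were lower, and in many rows of the upper block the 2 left columns stand apart from all 6 others.

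The called genes were described by where they stood apart. In 48 of the 78 genes that rose (61.5%), both pRb-/-;p107-/- arrays lay above all 6 other arrays, while the pRb-/-;p107+/+ arrays did not lie below all others. In 21 more, both held at once, in 6 only the pRb-/-;p107+/+ arrays stood apart, and 3 showed neither. Among the 101 that fell, 44 had the double-loss arrays alone at the bottom, 43 had also the pRb-/-;p107+/+ arrays at the top, 9 had only the second, and 5 neither. For comparison, the double-loss arrays alone stood apart in 852 of the 6054 genes with a positive difference (14.1%) and in 1268 of the 6339 with a negative one (20%), without regard to a call. Both held at once in 91 (1.5%) and 152 (2.4%) of these. A call favours genes whose duplicates agree and whose compared genotypes lie far apart. The larger shares among called genes are thus partly built in and carry no test.

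Loss of p107 where pRb was kept gave a smaller median in the same genes. The 78 genes that rose had a median difference of 2.05 for p107 loss in pRb-/- skin and of 0.22 for p107 loss in pRb+/+ skin, where 47 (60.3%) were positive and 4 were also among the 46 called genes (0.371%). Those 101 that fell had medians of -2.16 in pRb-/- and -0.89 in pRb+/+ skin, where 82 (81.2%) were negative and 18 were also called. Over probe sets, p107 loss in pRb+/+ skin gave 95 calls (0.42%). Among all genes, 71.1% of those positive and 49.6% of those negative in pRb-/- skin had the same sign in pRb+/+ skin, where the median of all genes was 0.4. Genes were chosen on the pRb-/- values, and scores of 1 probe set are tied together by their fixed mean and SD, so these medians carry no test. The test of the difference, the interaction of p107 loss with pRb status, called 0 of 22626 probe sets (limma, smallest adjusted p = 0.0502), with 2964 at an unadjusted p below 0.05. No gene is therefore particular to pRb-/- skin by that test.

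**Figure D2:**
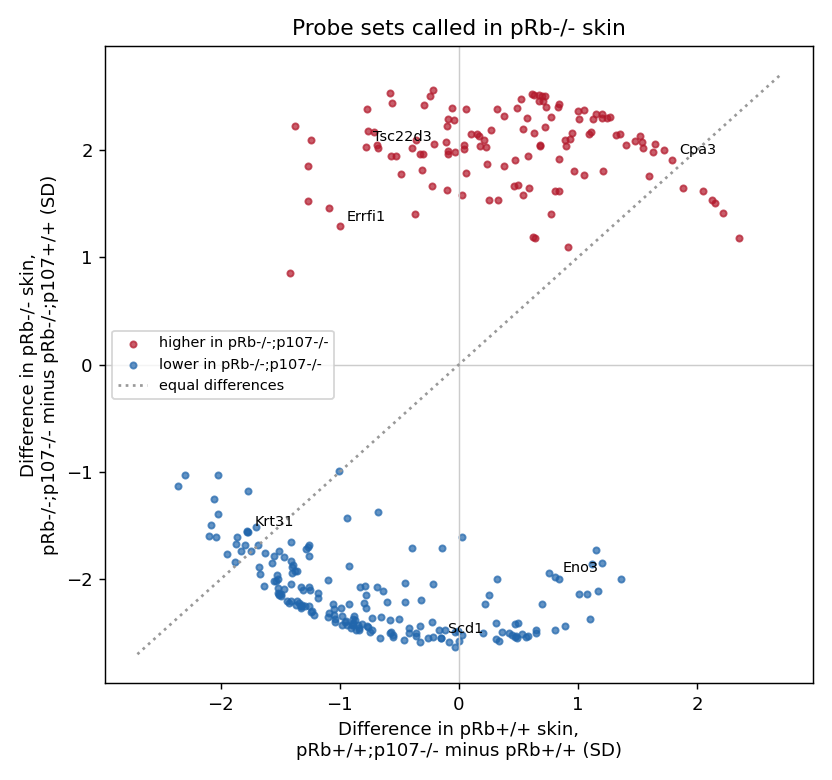
Scatter plot of the 310 called probe sets, with the difference for p107 loss in pRb-/- skin (vertical axis, SD units) against that for p107 loss in pRb+/+ skin (horizontal axis, SD units). The dotted line marks equal differences. Krt31 lies near it, whereas Eno3 and Errfi1 lie in quadrants of opposite sign, and 0 probe sets passed the test of the interaction.

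Calcb and Rdh9 had the smallest interaction p. Calcb, which encodes a calcitonin gene-related peptide, was at 1.67 and 1.57 in double-loss skin and at -0.6 and -0.61 in pRb-/-;p107+/+ skin. Calcb was at -0.53 and -0.58 in pRb+/+;p107-/- skin, and at -0.48 and -0.44 in pRb+/+ skin. It thus stood apart in skin without both proteins and differed by 2.22 ± 0.04 with p107 loss in pRb-/- skin, against -0.1 ± 0.04 in pRb+/+ skin. Rdh9, a retinol dehydrogenase gene, differed by 1.81 ± 0.04 in pRb-/- skin and by -0.31 ± 0.04 in pRb+/+ skin. Errfi1, whose protein Mig6 inhibits the EGF receptor, was at 1.38 on both double-loss arrays, against 0.17 and 0.01 in pRb-/-;p107+/+ skin. In pRb+/+ skin its sign was opposite, with -1.2 and -1.27 where p107 was lost and -0.22 and -0.25 where it was kept (interaction 2.29 ± 0.09, adjusted p = 0.0765).

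Genes of the replication machinery were mostly higher without p107, but nearly none passed the test. In the list of origin licensing and helicase genes, 17 of 21 measured were positive and 0 were called. The median was 1.21, and that of all genes -0.05. Over all genes, 48.9% were positive, 0.629% rose and 0.815% fell, and no list count here or below was tested against these shares. Largest among them were Cdc45, part of the replicative helicase (2.19 ± 0.57, adjusted p = 0.17), Cdc6, which loads the helicase onto origins (1.91 ± 0.25, adjusted p = 0.0668), and Dbf4, the activator of the Cdc7 kinase (1.85 ± 0.86, adjusted p = 0.349). The second Dbf4 probe set had the opposite sign, at -1.36 ± 0.36 (adjusted p = 0.172). Cdc6 was at 1.27 and 1.65 in double-loss skin, against -0.59 and -0.31 in pRb-/-;p107+/+ skin. Its arrays did not overlap between the genotypes, and both double-loss arrays were the highest of all 8.

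Of 28 DNA synthesis and nucleotide supply genes, 1 rose, 0 fell and 27 did not pass, with 21 positive and a median of 0.89. The gene that rose was Prim1, which encodes the catalytic subunit of DNA primase. It was at 1.42 and 1.36 in double-loss skin and at 0.32 and 0.11 in pRb-/-;p107+/+ skin, a rise of 1.18 ± 0.11 (limma, adjusted p = 0.0418). The pRb+/+;p107-/- arrays followed with -0.39 and -0.58, and the pRb+/+ arrays were lowest, at -1.11 and -1.13, so the 4 genotypes did not overlap. The second Prim1 probe set differed by 1.74 ± 0.35 (adjusted p = 0.119). Rpa2, a subunit of the single-strand binding protein RPA, differed by 2.46 ± 0.33 (adjusted p = 0.0701) and had the largest difference of the list, while its other probe set differed by 0.15 ± 0.44.

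The promoters of Prim1 and Cdc6 are shown because pocket proteins act through E2F sites near the start of such genes. They are RefSeq sequences of GRCm38.p6, from 250 bases before to 50 after the start, read 5′ to 3′ along the gene. Prim1 lies at chr10:128014965-128015264 on the plus strand, and Cdc6 at chr11:98907901-98908200 on the plus strand. Capitals mark a match to the E2F motifs TTTCCCGC, TTTCGCGC, TTTGCCGC or TTTGGCGC on either strand. Cdc6 was chosen after its values were seen.
Prim1: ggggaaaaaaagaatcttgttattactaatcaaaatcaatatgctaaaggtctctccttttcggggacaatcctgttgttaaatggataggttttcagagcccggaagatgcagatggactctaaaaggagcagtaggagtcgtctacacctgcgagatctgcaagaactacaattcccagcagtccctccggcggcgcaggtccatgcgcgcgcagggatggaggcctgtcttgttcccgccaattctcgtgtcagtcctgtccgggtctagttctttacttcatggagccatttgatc
Cdc6: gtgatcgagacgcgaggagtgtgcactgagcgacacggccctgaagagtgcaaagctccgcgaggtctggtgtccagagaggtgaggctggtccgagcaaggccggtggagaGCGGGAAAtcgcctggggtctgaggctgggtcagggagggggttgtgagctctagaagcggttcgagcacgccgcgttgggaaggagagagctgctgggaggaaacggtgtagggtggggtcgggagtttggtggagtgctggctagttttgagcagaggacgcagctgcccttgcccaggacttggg
In Cdc6 the match begins at position -138 from the start, and the Prim1 window held none of these letters. Over all genes with a promoter sequence, 353 of 9887 held a match (3.57%). The share was 8 of 17 licensing genes (47.1%), 4 of 25 DNA synthesis genes (16%), 1 of 67 genes that rose (1.49%) and 0 of 81 genes that fell. The single riser with a match was Nxt1, a nuclear export factor gene, named after its values were seen. A match is a string of letters only, and no binding was measured.

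Other cell cycle lists showed few calls in either direction. Of 43 G2 and mitosis genes, 0 rose, 1 fell and 42 did not pass, with 27 negative and a median of -0.55. The gene that fell was Ccna2, the gene of cyclin A2, which drives S phase and entry into mitosis. Ccna2 was at -0.76 and -0.91 in double-loss skin and at 1.08 and 0.78 in pRb-/-;p107+/+ skin, with no overlap (-1.77 ± 0.12, adjusted p = 0.0301). A like difference of -1.95 stood between pRb+/+;p107-/- skin, at -1.07 and -0.97, and pRb+/+ skin, at 0.9 and 0.96. The other Ccna2 probe set differed by -0.53 ± 0.62 and overlapped (adjusted p = 0.702). Of 15 G1 cyclins, kinases and kinase inhibitors, 0 rose and 1 fell, with a median of 0.51.

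That gene was Ccnd1, which encodes cyclin D1, the partner of the kinases that phosphorylate pocket proteins. It was at -1.16 and -1.33 in double-loss skin, against 1.03 and 0.65 in pRb-/-;p107+/+ skin (-2.09 ± 0.19, adjusted p = 0.0411), and its 2 other probe sets differed by -1.34 ± 0.54 and -2.22 ± 0.27 without passing. Cyclin D2, from Ccnd2, was lower in each of its probe sets, from -1.93 to -2.46, and 2 of them were called (-2.23 ± 0.18 with adjusted p = 0.0348, and -2.23 ± 0.21 with adjusted p = 0.0445). The Ccnd2 probe set that stands for the gene missed the threshold, at -2.39 ± 0.35 (adjusted p = 0.0784). Cdkn1a, which encodes the kinase inhibitor p21, differed by 2.05 ± 0.34 (adjusted p = 0.0957).

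In the list of pocket proteins and E2F factors, 0 of 13 were called, with a median of 1.58. Its largest differences were in E2f6, a repressor without a pocket protein site (-2.29 ± 0.57, adjusted p = 0.163), and in Mybl2 and Lin9, of which Lin9 belongs to the MuvB core that pairs with p130 in resting cells and with the Mybl2 protein in cycling cells (2.1 ± 0.64 and 1.92 ± 0.82, adjusted p = 0.214 and 0.32). The p53, apoptosis and DNA damage lists had 0 called of 16, 22 and 22 genes, with medians of 0.67, 0.08 and 0.31. Perp, a p53 target in cell adhesion, differed by 2.36 ± 0.59 (adjusted p = 0.161), and Ei24, of the same list, by -2.21 ± 0.53 (adjusted p = 0.152). Brca2, which acts in recombination repair, differed by 2.38 ± 0.4 (adjusted p = 0.0969).

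The plot of gene lists sets these differences beside those of the other pathways and cell types.

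**Figure D3:**
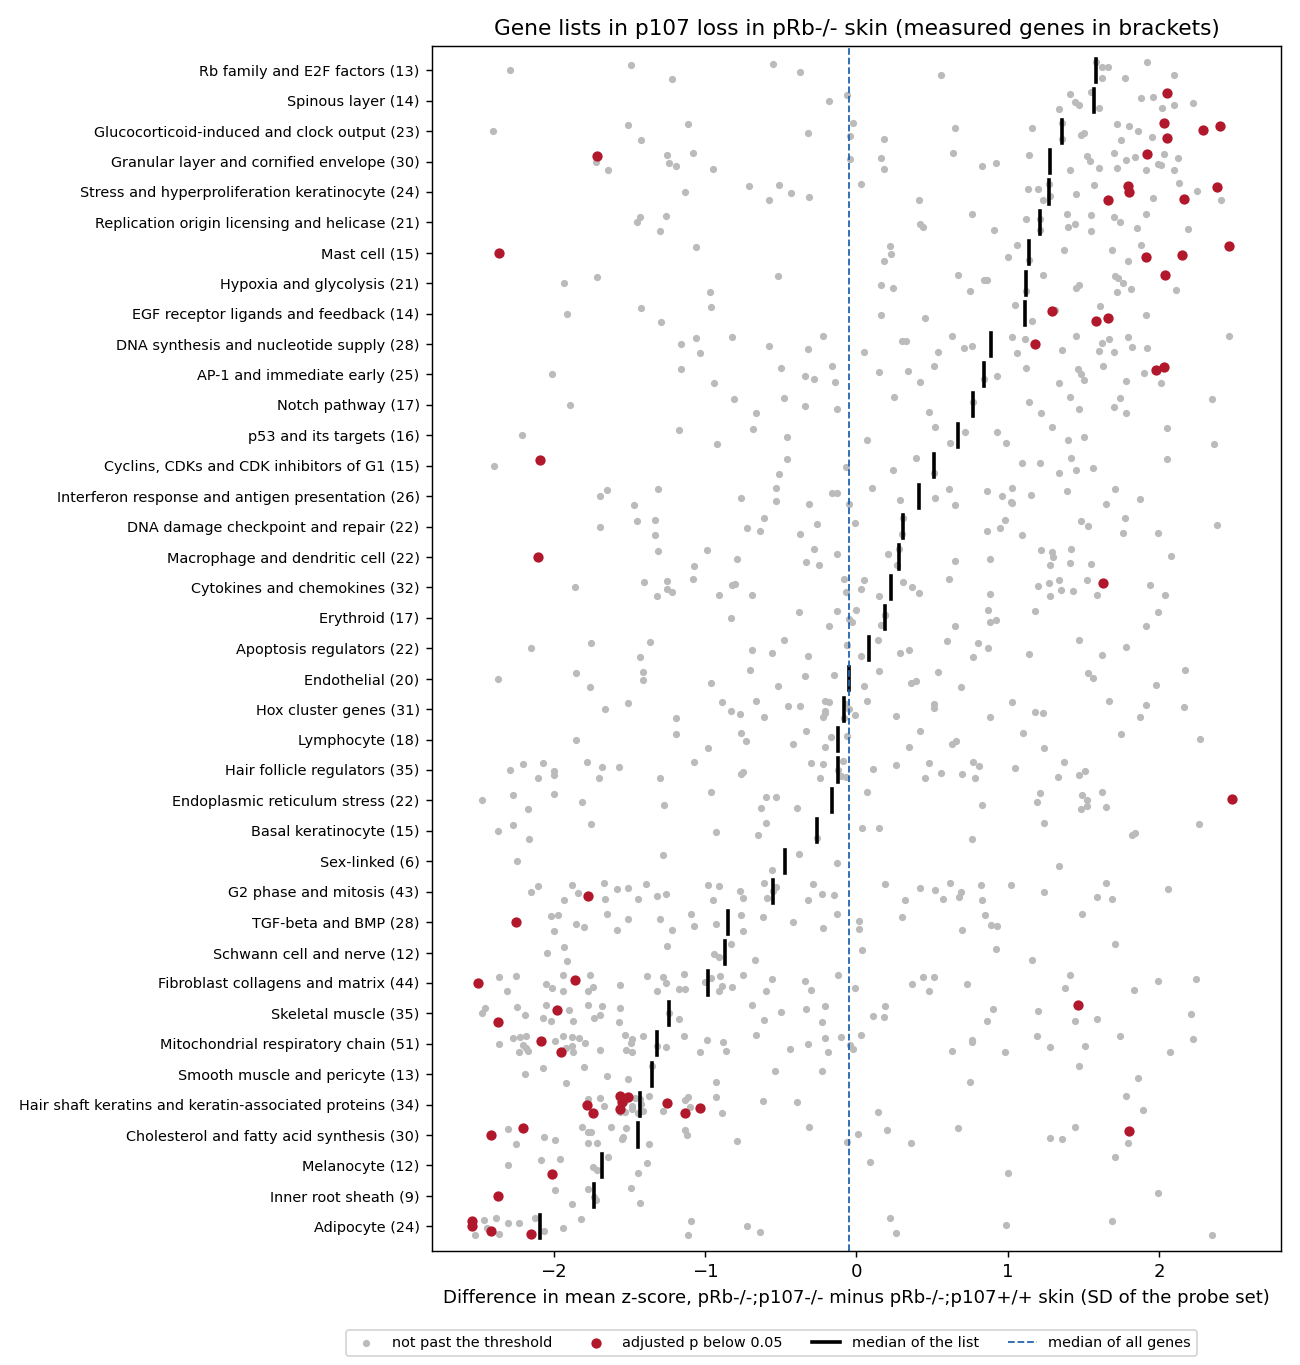
Each point is 1 measured gene of a list (vertical axis, with the number measured in brackets), placed by its difference between pRb-/-;p107-/- and pRb-/-;p107+/+ skin in SD units (horizontal axis). Red points passed the threshold, black bars are list medians and the dashed line is the median of all genes, -0.05. The adipocyte list has the lowest median, -2.09, and 9 red points lie in the hair shaft list, all negative.

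Genes of stressed and hyperproliferating keratinocytes held 5 of the 78 genes that rose. Of 24 measured, 5 rose (0.629% of all genes did), 0 fell and 19 did not pass, and the median was 1.27. Lcn2, which encodes the iron-binding protein lipocalin 2, was at 1.31 and 1.63 in double-loss skin and at -1.04 and -0.78 in pRb-/-;p107+/+ skin (2.38 ± 0.16, adjusted p = 0.0267). Il1f6 and Il1f9 encode cytokines of the interleukin 1 family, which keratinocytes release in inflamed skin. Il1f6 was at 1.65 and 1.47, against -0.48 and -0.72 in pRb-/-;p107+/+ skin, and Il1f9 at 1.48 and 1.5, against -0.24 and -0.39. Both stood above all 6 other arrays (2.16 ± 0.14 and 1.8 ± 0.1, adjusted p = 0.0267 and 0.0228). Sprr2d, a small proline-rich component of the cornified envelope, was at 1.57 and 1.5 against -0.15 and -0.09 in pRb-/-;p107+/+ skin (1.66 ± 0.06, adjusted p = 0.0188). Its family member Sprr2h rose by 1.79 ± 0.13 (adjusted p = 0.032), but on a probe set that can match several transcripts, and the Sprr2 genes are near-identical copies.

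Differentiation genes of the upper epidermis were higher in most members, with 2 that rose and 1 that fell. Of 14 spinous layer genes, 1 rose and 13 did not pass, with 12 positive and a median of 1.57. The riser was Krtdap, a secreted keratinocyte differentiation protein, at 1.66 and 1.44 in double-loss skin and -0.65 and -0.36 in pRb-/-;p107+/+ skin (2.05 ± 0.2, adjusted p = 0.0464). Those with the largest differences among the genes that did not pass were Pkp1, a desmosomal plakophilin, Dmkn and Calml3, with 2.22 ± 0.3, 2.1 ± 0.3 and 2.02 ± 0.34 and adjusted p of 0.0698, 0.0773 and 0.0952. Of 30 granular layer and cornified envelope genes, 1 rose, 1 fell and 28 did not pass, with a median of 1.28. Asprv1, a protease that processes filaggrin, rose by 1.92 ± 0.15 (adjusted p = 0.0331), with 1.61 and 1.44 in double-loss skin and -0.44 and -0.36 in pRb-/-;p107+/+ skin. Lce1i, a late cornified envelope gene of a multigene family, fell by 1.71 ± 0.14 (adjusted p = 0.0384) on a probe set that can match several transcripts. Basal keratinocyte genes had 0 called of 15 and a median of -0.26. In that list the basal keratin Krt14 differed by 2.26 ± 0.57 and the integrin Itgb1 by -2.27 ± 0.38 (adjusted p = 0.165 and 0.0955). Other probe sets of both genes varied in sign, from -0.57 ± 1.25 to 0.9 ± 1.15 for Krt14 and from -1.96 ± 0.77 to 1.7 ± 0.85 for Itgb1.

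Ligands and a feedback inhibitor of the EGF receptor, which drives keratinocyte growth and migration, rose in double-loss skin. Of 14 genes of this list, 3 rose (0.629% of all genes did), 0 fell and 11 did not pass. The median was 1.11 in pRb-/- skin and -0.26 for p107 loss in pRb+/+ skin. Ereg, the gene of epiregulin, was at 1.55 on both double-loss arrays, against -0.22 and 0 in pRb-/-;p107+/+ skin (1.66 ± 0.11, adjusted p = 0.0282). Btc, the gene of betacellulin, was at 1.58 and 1.44, against -0.12 and -0.02 in pRb-/-;p107+/+ skin. Both of its probe sets were called (1.58 ± 0.1 and 2.17 ± 0.11, adjusted p = 0.0267 and 0.0228). Errfi1, described above, rose by 1.29 ± 0.06 (adjusted p = 0.0228). In all 3 genes the double-loss arrays were the highest of the 8.

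Immediate early genes and cytokines added 3 more that rose. Of 25 AP-1 and immediate early genes, 2 rose and 23 did not pass, with 17 positive and a median of 0.84. Ier3, an early response gene, was at 1.69 and 1.52 in double-loss skin and at -0.45 and -0.4 in pRb-/-;p107+/+ skin (2.03 ± 0.08, adjusted p = 0.0188). Dusp1, a phosphatase that inactivates MAP kinases, was at 1.74 and 1.45, against -0.6 and -0.18 in pRb-/-;p107+/+ skin (1.98 ± 0.18, adjusted p = 0.0429). All other arrays of both genes were below 0. Of 32 cytokine and chemokine genes, 1 rose and 31 did not pass, with a median of 0.23. It was Tslp, an epithelial cytokine that acts on dendritic and mast cells, at 1.59 and 1.49 in double-loss skin and at 0.02 and -0.19 in pRb-/-;p107+/+ skin (1.63 ± 0.17, adjusted p = 0.0499). Interferon response genes had 0 called of 26 and a median of 0.41, and the Notch list had 0 of 17 and a median of 0.77. Outside these counts, a probe set of the Notch ligand gene Jag1 was called higher (1.53 ± 0.11, adjusted p = 0.0301).

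Genes that glucocorticoids induce held 4 risers (0.629% of all genes rose) and no faller by the probe set that stands for each gene. Outside that count, a probe set of the clock output gene Dbp was called lower (-1.87 ± 0.16, adjusted p = 0.0403). Of 23 measured genes of glucocorticoid response and clock output, 16 were positive and 19 did not pass, with a median of 1.36 in pRb-/- skin against -0.09 for p107 loss in pRb+/+ skin. Fkbp5, a chaperone partner that restrains the glucocorticoid receptor, was at 1.66 and 1.52 in double-loss skin, against -0.9 and -0.49 in pRb-/-;p107+/+ skin. Both of its probe sets were called (2.29 ± 0.21 and 2.1 ± 0.13, adjusted p = 0.0429 and 0.0247). Tsc22d3, which encodes the glucocorticoid-induced leucine zipper protein, was at 1.52 and 1.56 against -0.58 and -0.39 in pRb-/-;p107+/+ skin. It too was called in 2 probe sets (2.03 ± 0.1 and 2.04 ± 0.17, adjusted p = 0.0228 and 0.0384).

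Ddit4, an inhibitor of mTOR signalling, rose by 2.4 ± 0.14 (adjusted p = 0.0228), with 1.38 and 1.58 in double-loss skin and -0.79 and -1.05 in pRb-/-;p107+/+ skin. Cebpd, a transcription factor of the acute phase, was at 1.79 and 1.3, against -0.49 and -0.51 in pRb-/-;p107+/+ skin (2.05 ± 0.19, adjusted p = 0.0429), but its other probe set differed by -0.67 ± 1.27. In these 4 genes both double-loss arrays were above all 6 others. The list did not move as one: Mt2, a metallothionein gene, differed by -2.4 ± 0.35 (adjusted p = 0.0771) and the receptor gene Nr3c1 by 0.18 ± 0.76. Both were named after their values were seen.

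**Figure D4:**
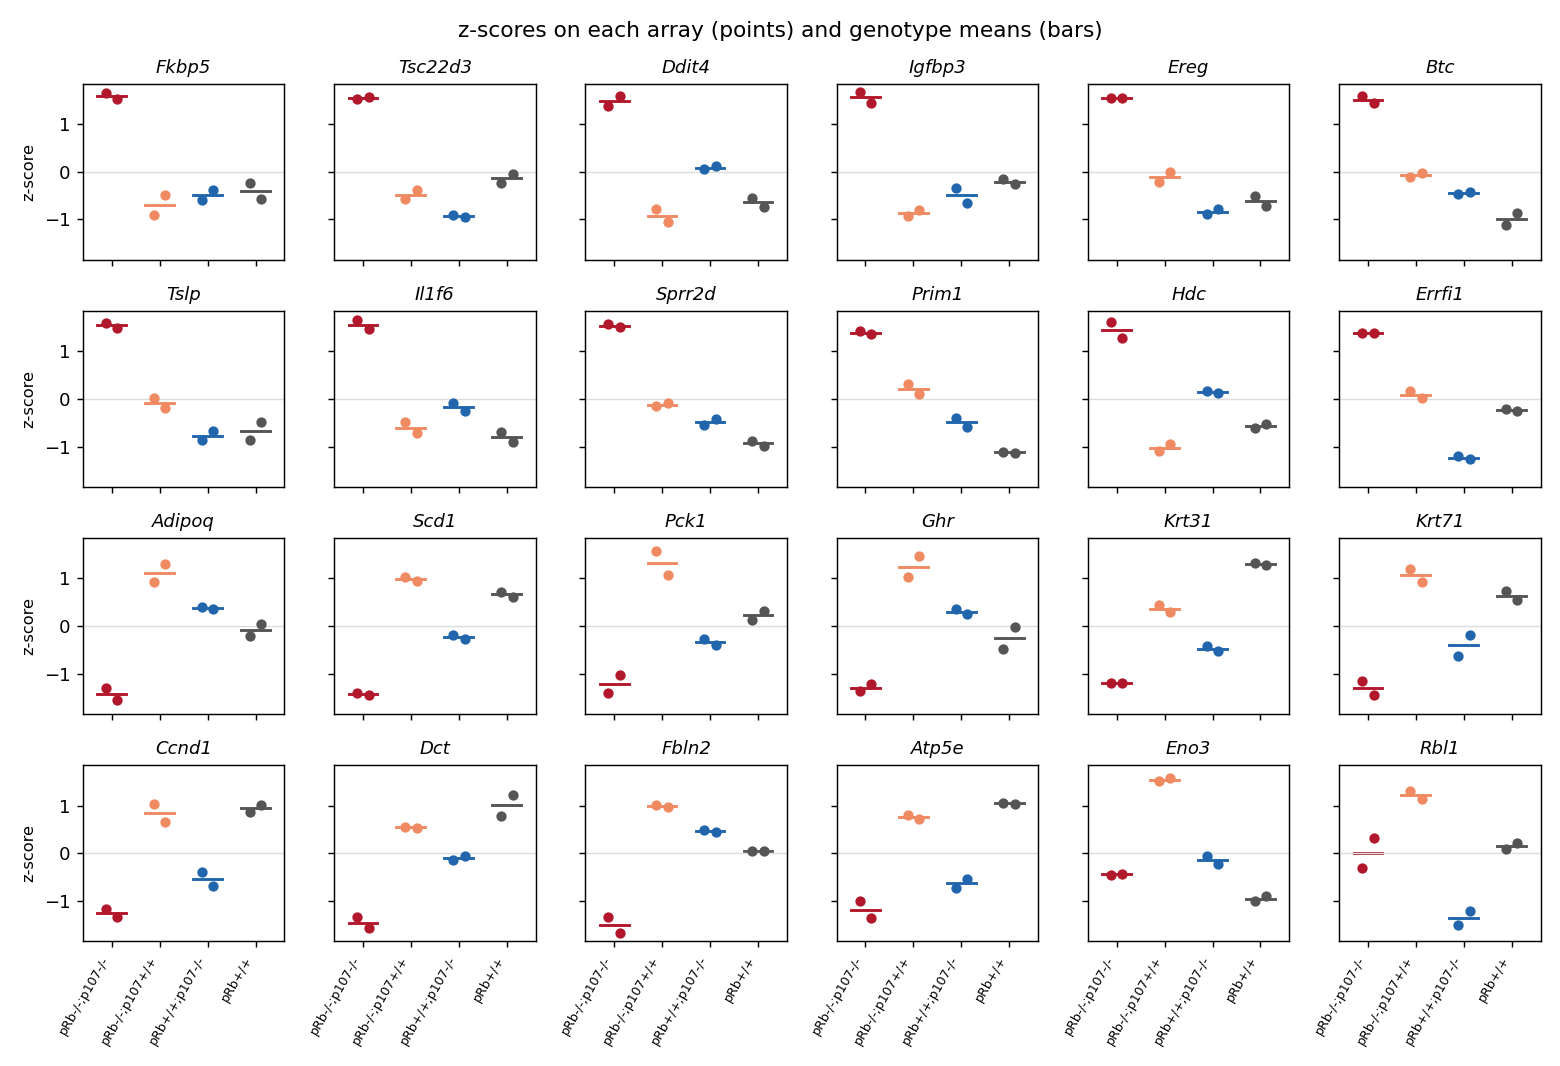
Scores of 24 genes on each array (points, z-score on the vertical axis) with genotype means (bars), for the 4 genotypes from left to right. In the upper 12 panels both pRb-/-;p107-/- arrays lie above all others, and in the panels of Adipoq and Ghr the pRb-/-;p107+/+ arrays are also above the pRb+/+;p107-/- and pRb+/+ arrays.

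The hair shaft list held 9 of the 101 genes that fell. Of 34 hair keratin and keratin-associated protein genes, 0 rose, 9 fell (0.815% of all genes did) and 25 did not pass. The list had 31 negative members (6339 of 12393 over all genes) and a median of -1.43. In pRb+/+ skin the median for p107 loss was -1.78, so the sign was shared between the backgrounds. Krt31, a hair cortex keratin, was at -1.2 and -1.19 in double-loss skin and at 0.44 and 0.29 in pRb-/-;p107+/+ skin (-1.56 ± 0.07, adjusted p = 0.0228). It was at -0.42 and -0.53 in pRb+/+;p107-/- skin and at 1.33 and 1.28 in pRb+/+ skin. The 4 genotypes did not overlap in Krt31, and the double-loss arrays were lowest. Krtap6-5, a high-glycine-tyrosine hair protein, was at -1.27 and -1.38 against 0.39 and 0.44 in pRb-/-;p107+/+ skin (-1.74 ± 0.05, adjusted p = 0.0173).

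Krtap16-3 was called in both of its probe sets (-1.56 ± 0.09 and -1.89 ± 0.11, adjusted p = 0.0228 in each), and Krtap21-1, Krt33a and Krtap19-9b differed by -1.78 ± 0.13, -1.55 ± 0.12 and -1.51 ± 0.15 (adjusted p = 0.0328, 0.0345 and 0.0475). These keratin-associated proteins are multigene families whose probe sets can match more than 1 copy. In the inner root sheath list, 1 of 9 fell and 8 did not pass, with a median of -1.73. Krt71, an inner root sheath keratin, was at -1.16 and -1.44 in double-loss skin and at 1.2 and 0.93 in pRb-/-;p107+/+ skin (-2.37 ± 0.22, adjusted p = 0.0429). Hair follicle regulators, the signals and transcription factors that shape the follicle, had 0 called of 35 and a median of -0.12. In whole skin, fewer cells of a type and less RNA per cell cannot be told apart, here and for each cell type below.

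The promoters of Krt31, which fell, and Sprr2d, which rose, are shown because both hold the same letters at the same distance from the start. The RefSeq sequences of GRCm38.p6 are at chr11:100050502-100050801 on the minus strand and chr3:92338890-92339189 on the plus strand, and capitals mark the letters TATAAA, searched on both strands. This motif was added after the data were seen.
Krt31: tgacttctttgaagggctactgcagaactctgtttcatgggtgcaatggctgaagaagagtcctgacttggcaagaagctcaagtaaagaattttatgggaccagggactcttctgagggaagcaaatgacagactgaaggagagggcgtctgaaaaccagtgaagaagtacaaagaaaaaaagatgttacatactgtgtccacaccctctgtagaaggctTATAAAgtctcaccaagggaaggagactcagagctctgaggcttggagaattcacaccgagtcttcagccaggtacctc
Sprr2d: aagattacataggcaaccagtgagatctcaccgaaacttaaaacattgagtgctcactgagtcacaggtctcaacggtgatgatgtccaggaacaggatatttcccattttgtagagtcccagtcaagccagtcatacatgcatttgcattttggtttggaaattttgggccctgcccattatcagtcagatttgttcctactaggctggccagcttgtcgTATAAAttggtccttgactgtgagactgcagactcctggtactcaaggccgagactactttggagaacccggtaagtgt
In both, the match begins at position -29 from the start. It was present in 20 of 28 hair shaft promoters (71.4%) and in 10 of 19 stress keratinocyte promoters (52.6%), against 1002 of 9887 over all genes (10.1%). Of the genes that rose 9 of 67 held it (13.4%), and of those that fell 19 of 81 (23.5%). Lcn2 and Il1f9, which rose, held none. These shares are over whole lists, most of whose members did not pass the test. Neither list had a match to the E2F motifs, in 0 of 28 and 0 of 19 promoters.

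Fat genes had the lowest median of the 39 lists. Of 24 adipocyte genes, 0 rose, 4 fell (0.815% of all genes did) and 20 did not pass. The list had 19 negative members and a median of -2.09, against 0.44 for p107 loss in pRb+/+ skin. Adipoq, the gene of the fat hormone adiponectin, was at -1.29 and -1.55 in double-loss skin and at 0.93 and 1.3 in pRb-/-;p107+/+ skin (-2.54 ± 0.18, adjusted p = 0.0313). Scd1, which desaturates fatty acids, shared the smallest adjusted p of the comparison with probe sets of Calcb, Rdh9 and Wnt5a. It was at -1.4 and -1.44, against 1.04 and 0.94 in pRb-/-;p107+/+ skin, and both of its probe sets were called (-2.41 ± 0.06 and -2.55 ± 0.23, adjusted p = 0.0135 and 0.0407). Cidea, a lipid droplet protein, was at -1 and -1.15 against 1.2 and 0.96 in pRb-/-;p107+/+ skin (-2.15 ± 0.13, adjusted p = 0.0247). Pck1, an enzyme of glycerol and glucose synthesis, fell by 2.54 ± 0.23 (adjusted p = 0.0429), while its other probe set differed by 0.23 ± 0.77.

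The low scores of the fat list were set against arrays in which it was high. The list's median over genes was -0.75 and -1.03 in double-loss skin, 1.18 and 0.95 on the pRb-/-;p107+/+ pair, 0.07 and 0.27 on the pRb+/+;p107-/- pair and -0.39 and 0.05 on the pRb+/+ pair. Against pRb+/+ skin, the median difference was -1.13 for pRb-/-;p107-/- and 1.08 for pRb-/-;p107+/+ skin. The first shares the double-loss arrays with the comparison described here, and the second shares the pRb-/-;p107+/+ arrays. Not all fat genes were low: Fabp4, an abundant adipocyte fatty acid carrier, differed by 1.69 ± 0.5 (adjusted p = 0.203), and Cebpa, a factor of fat cell differentiation, by 2.35 ± 0.36 (adjusted p = 0.0828). Cebpa was named after its value was seen.

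Of 30 genes for cholesterol and fatty acid synthesis, 1 rose, 2 fell and 27 did not pass, with a median of -1.44. Elovl6, which extends saturated fatty acids, fell in both probe sets (-2.2 ± 0.12 and -2.32 ± 0.14, adjusted p = 0.0228 and 0.0247), and Scd1 is the other that fell. Elovl1, which makes the very long chains of barrier lipids, rose in 2 probe sets (1.8 ± 0.1 and 1.94 ± 0.2, adjusted p = 0.0228 and 0.0477). Elovl1 was at 1.5 and 1.36 in double-loss skin and at -0.36 and -0.37 in pRb-/-;p107+/+ skin. Mgll, a lipase that completes the breakdown of stored fat, fell in both called probe sets (-2.34 ± 0.11 and -2.33 ± 0.11, adjusted p = 0.0228 in each), but the probe set that stands for the gene differed by 1.5 ± 0.93.

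Hormone and fuel genes outside the lists were among those with the largest differences. Ghr, the growth hormone receptor, was at -1.37 and -1.22 in double-loss skin and at 1.03 and 1.46 in pRb-/-;p107+/+ skin (-2.54 ± 0.24, adjusted p = 0.0429). Igfbp3, which binds insulin-like growth factors, was at 1.68 and 1.44, against -0.92 and -0.8 in pRb-/-;p107+/+ skin (2.42 ± 0.15, adjusted p = 0.0247). Adipor1, a receptor for adiponectin, rose by 2.39 ± 0.14 (adjusted p = 0.0228), while its ligand gene Adipoq fell. Both other Adipor1 probe sets were positive, at 1.96 ± 0.71 and 1.4 ± 0.3. Pgam2, the muscle form of the glycolytic enzyme phosphoglycerate mutase, had the largest difference of all called genes, -2.63 ± 0.16 (adjusted p = 0.0246). Pon3, a paraoxonase of lipid oxidation, Akr1c14, a steroid reductase, Apmap, an adipocyte membrane protein, and Nnt, the mitochondrial transhydrogenase, also fell, with differences of -2.59 ± 0.25, -2.54 ± 0.25, -2.5 ± 0.25 and -2.5 ± 0.23. Slc2a1, the glucose transporter that keratinocytes use, was the riser among 21 hypoxia and glycolysis genes (2.04 ± 0.2, adjusted p = 0.0455), whose median was 1.12.

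Genes of the respiratory chain were mostly lower. Of 51 measured, 40 were negative (6339 of 12393 over all genes), 2 fell (0.815% of all genes did) and 49 did not pass, with a median of -1.32. Outside these counts, probe sets of Cox5b and Ndufs8 were called lower (-2.22 ± 0.16 and -2.19 ± 0.23, adjusted p = 0.032 and 0.0494). A probe set of Ndufv1, also outside them, was called higher (2.34 ± 0.23, adjusted p = 0.0475). Cox8b, a subunit of cytochrome oxidase in muscle and brown fat, was at -0.85 and -0.91 in double-loss skin and at 1.35 and 1.06 in pRb-/-;p107+/+ skin (-2.08 ± 0.18, adjusted p = 0.0384). Atp5e, a subunit of ATP synthase measured by a probe set that can match several transcripts, was at -1 and -1.36, against 0.81 and 0.72 in pRb-/-;p107+/+ skin (-1.95 ± 0.15, adjusted p = 0.0331). Both had the same sign for p107 loss in pRb+/+ skin, with -1.52 and -1.67.

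Skeletal muscle lies under the skin, and how deep the skin was cut is not given in the labels. Of 35 muscle genes, 1 rose, 2 fell and 32 did not pass, with a median of -1.24. Myl1, a fast myosin light chain, was at -0.98 and -1.21 in double-loss skin and at 1.26 and 1.29 in pRb-/-;p107+/+ skin (-2.37 ± 0.17, adjusted p = 0.0301). Eno3, the muscle enolase, was at -0.45 and -0.43 against 1.51 and 1.57 in pRb-/-;p107+/+ skin (-1.98 ± 0.08, adjusted p = 0.0188), and the pRb+/+ arrays, at -1.01 and -0.9, were lower than the double-loss arrays. Tnni1, the slow troponin I, rose by 1.46 ± 0.14 (adjusted p = 0.0438), with 0.11 and 0 in double-loss skin and -1.35 and -1.45 in pRb-/-;p107+/+ skin. In all 3 muscle genes the pRb-/-;p107+/+ arrays were at an end of the range of the 8 arrays. The list's median score was -0.26 and -0.43 in double-loss skin, 0.82 and 0.71 on the pRb-/-;p107+/+ pair, -0.04 and -0.07 on the pRb+/+;p107-/- pair and -0.8 and 0.03 on the pRb+/+ pair. Muscle and fat lists were thus both highest on the pRb-/-;p107+/+ arrays, and the part of tissue composition in the other results was not tested.

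Matrix genes of dermal fibroblasts were mostly negative, with 34 of 44, a median of -0.98, 0 that rose and 2 that fell. Over all genes, 6339 of 12393 were negative and 0.815% fell. Fbln2, the matrix protein fibulin 2, was at -1.33 and -1.68 in double-loss skin and at 1.01 and 0.98 in pRb-/-;p107+/+ skin (-2.5 ± 0.12, adjusted p = 0.0228). Col5a1, a collagen that sets fibril width, fell by 1.86 ± 0.13 (adjusted p = 0.0316), but its 2 other probe sets differed by 1.35 ± 0.39 and 0.64 ± 0.57, with the opposite sign. Of 28 TGF-beta and BMP genes, 1 fell, with a median of -0.85: Smad1, the signal carrier of BMP receptors (-2.25 ± 0.19, adjusted p = 0.0383), whose other probe set differed by 0.22 ± 0.71. Ets1, a transcription factor of endothelium, lymphocytes and invading cells, fell in 2 probe sets (-2.55 ± 0.14 and -1.18 ± 0.12, adjusted p = 0.0228 and 0.0499).

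Mast cell genes were the list of a blood-derived cell type with the most calls. Of 15 measured, 3 rose (0.629% of all genes did), 1 fell (0.815% of all genes did) and 11 did not pass. The list had 13 positive members and a median of 1.14 in pRb-/- skin and of 1.53 for p107 loss in pRb+/+ skin. Hdc, the enzyme that makes histamine, was at 1.62 and 1.27 in double-loss skin and at -1.09 and -0.95 in pRb-/-;p107+/+ skin, and both of its probe sets were called (2.46 ± 0.14 and 2.32 ± 0.16, adjusted p = 0.0228 and 0.028). Tpsab1, a tryptase of mast cell granules, rose by 2.15 ± 0.13 (adjusted p = 0.0247), and Cpa3, their carboxypeptidase, by 1.91 ± 0.19 (adjusted p = 0.0468). Cpa3 was at 1.02 and 0.83 in double-loss skin, against -0.84 and -1.13 in pRb-/-;p107+/+ skin. It was at 0.93 and 0.92 in pRb+/+;p107-/- skin, against -0.66 and -1.06 in pRb+/+ skin, so that both genotypes without p107 lay above both with it. Mcpt4, a chymase of connective tissue mast cells, went the other way (-2.36 ± 0.19, adjusted p = 0.0365), with -1.24 and -1.74 in double-loss skin and 0.76 and 0.97 in pRb-/-;p107+/+ skin. Of the defining markers, the stem cell factor receptor Kit differed by 1 ± 0.72 and the high-affinity IgE receptor subunit Ms4a2 by 0.23 ± 1.27, and neither passed.

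The other cell type lists gave few calls. Of 12 melanocyte genes, 1 fell, with a median of -1.68: Dct, an enzyme of melanin synthesis, at -1.34 and -1.57 in double-loss skin and at 0.56 and 0.54 in pRb-/-;p107+/+ skin (-2.01 ± 0.18, adjusted p = 0.0404). Outside this count, probe sets of Tyrp1, Tyr and Ednrb were also called lower (-2.51 ± 0.19, -2.49 ± 0.1 and -2.53 ± 0.26, adjusted p = 0.0325, 0.0188 and 0.0499). Of 22 macrophage and dendritic cell genes, 1 fell, with a median of 0.28: Csf1r, the receptor for colony stimulating factor 1, at -2.1 ± 0.14 (adjusted p = 0.0267). Its other probe sets differed by -0.29 ± 0.75 and -1.86 ± 0.62 without passing, and Cd14, a coreceptor for bacterial lipopolysaccharide, differed by 2.08 ± 0.27 (adjusted p = 0.0668). Among endoplasmic reticulum stress genes, 1 of 22 rose, with 11 positive, 11 negative and a median of -0.16. It was Herpud1, a factor in protein degradation from this compartment (2.48 ± 0.24, adjusted p = 0.0448). The largest differences that did not pass were negative, in Pdia4, Canx and Pdia3 (-2.47 ± 0.41, -2.27 ± 0.34 and -2.17 ± 0.56). Pdia4 and Canx each had another probe set with a positive difference (1.51 ± 0.99 and 0.48 ± 1.03). Lymphocyte, endothelial, smooth muscle, Schwann cell, erythroid and Hox lists had 0 called of 18, 20, 13, 12, 17 and 31, with medians of -0.12, -0.05, -1.35, -0.87, 0.19 and -0.08. Outside these counts, a probe set of the myelin gene Mbp was called lower (-1.5 ± 0.16, adjusted p = 0.0499). The other Mbp probe sets did not pass and varied in sign.

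Of 6 sex-linked genes 0 were called, but Xist was at -1.63 and -1.48 in double-loss skin and at 0.66 and 0.71 in pRb-/-;p107+/+ skin (-2.24 ± 0.26, adjusted p = 0.0585). Both other Xist probe sets were negative, at -0.94 ± 0.45 and -1.34 ± 0.15, without passing. The Y-linked genes Eif2s3y, Kdm5d and Uty differed by -0.13 ± 0.36, -0.38 ± 0.4 and 1.34 ± 0.48 between these genotypes. The second Uty probe set differed by 2.31 ± 0.52 and the Y-linked gene Usp9y by -1.28 ± 0.98, and neither passed. The sex of the pooled animals is not given in the labels, and its part in the results was not tested.

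The remaining genes with the largest positive differences were of mixed function. They were Grm8, a glutamate receptor (2.53 ± 0.26), Mink1, a kinase of JNK signalling (2.51 ± 0.21), Spock2, a matrix proteoglycan (2.5 ± 0.26), Bcl2l15, of the Bcl2 family (2.46 ± 0.21), S100a16, a calcium-binding protein (2.43 ± 0.25), Ifitm1, an interferon-induced membrane protein (2.39 ± 0.15), and Slc6a4, the serotonin transporter (2.34 ± 0.1). Psg18, from a family of near-identical genes, rose by 2.44 ± 0.16. Kif1b, a kinesin motor, rose by 2.5 ± 0.24, but 5 of the 6 others for this gene were negative. Mtm1, a phosphoinositide phosphatase, and Cpd, a carboxypeptidase, rose in 2 probe sets each, by 2.4 ± 0.15 and 1.76 ± 0.1 and by 1.67 ± 0.07 and 1.1 ± 0.1. In both, the probe set that stands for the gene was not called and was negative, at -0.29 ± 0.88 for Mtm1 and -1.55 ± 0.49 for Cpd. The second Spock2 probe set differed by -0.3 ± 1.23. Among those that fell were Mgat1, an enzyme of N-glycan synthesis (-2.58 ± 0.11), Nosip, a partner of nitric oxide synthase (-2.57 ± 0.22), Tpm1, a tropomyosin (-2.52 ± 0.25), Tns1, an adhesion protein (-2.52 ± 0.24), Krt12, a keratin best known from cornea (-2.5 ± 0.22), and Txk, a T cell kinase (-2.5 ± 0.26). Their adjusted p lay between 0.0228 and 0.0499.

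Probe sets of a gene did not always go together. Of the 179 called genes, 70 had at least 1 other probe set: in 52 all others had the same sign, in 6 some did and in 12 none did. In 9 of the 70 another probe set was called in the same direction, and in 0 in the opposite one. Genes called only on a probe set that does not stand for the gene are not in these counts.

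Array controls differed between the compared genotypes. The 24 poly-A controls, spiked into the RNA before labelling, had mean z-scores of -0.91 and -0.96 in double-loss skin and of 1.38 and 1.13 in pRb-/-;p107+/+ skin. The 3 beta-actin controls were at -1 and -1.08 in double-loss skin, against 1.21 and 1.41 in pRb-/-;p107+/+ skin, and the 18 hybridization controls at -0.64 and -0.32 in double-loss skin, against 0.09 and -0.03 in pRb-/-;p107+/+ skin. The 3 Gapdh controls had 0.04 and -0.03 in double-loss skin, against 0.84 and 0.77 in pRb-/-;p107+/+ skin. All 4 kinds were lower in double-loss skin, and their part in the results was not tested. The poly-A controls were at -0.57 and -0.55 in pRb+/+;p107-/- skin, against 0.3 and 0.19 in pRb+/+ skin. Between these genotypes the hybridization controls were also lower without p107, the beta-actin controls overlapped and the Gapdh controls were higher without p107. Duplicates correlated over the probe sets with r = 0.276 for pRb-/-;p107-/- and r = 0.037 for pRb-/-;p107+/+ skin. Between these genotypes r lay from -0.33 to -0.223. The second pRb-/-;p107+/+ array had r = 0.076 with the first pRb+/+ array, which is above the value with its own duplicate.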

How the data were processed

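Whole-skin RNA of 4 genotypes was measured on 8 Affymetrix arrays, 2 per genotype, from pools of 3 animals, with total RNA taken from 30 mg of skin per the labels' protocols. The deposited value is a score: RMA was used per the submitters' processing notes, and each probe set then has mean 0 and SD 1 over the 8 arrays. The scale that was standardized, log or linear, is not given in those notes. Signal over background, and hence depth, cannot be read from scores, and the number of arrays limits the precision.

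Groups and replicate numbers came from the titles, and 0 columns were left unmatched. Of 22690 probe sets, 64 controls were left out. Platform annotation gave 1 symbol to 20380 of the 22626 tested, several to 691 and none to 1555, and 20351 were found in the gene table, which changed 0 symbols. For 12393 genes, of which 4956 had 2 or more probe sets, the probe set was chosen by its suffix (_at, then _a_at, _s_at and _x_at) and lowest number.

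All 8 arrays entered 1 linear model (limma 3.58.1, R 4.3.3) with a coefficient per genotype and 4 residual degrees of freedom. The unmoderated two-sided test was used, because standardizing a probe set leaves its result unchanged. Benjamini-Hochberg adjustment covered all 22626 probe sets tested, and 0.05 was the threshold. The scripts were tested on simulated data. In an exact permutation test, 2 arrays against 2 could not go below p = 0.333.

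The 39 gene lists, the comparisons and the naming rule were chosen with earlier results of these data known. Named were Rbl1, Rb1 and Rbl2, the 15 called genes with the largest difference in each direction, genes called in 2 or more probe sets, at most 6 called members of each list (and up to 3 uncalled ones by size where fewer than 2 were called), and the cell type markers. Calcb, Rdh9 and members singled out beyond this rule were chosen after their values were seen. Alternatives were the moderated test, the pRb-/- arrays only, the replicate number as a block, array medians subtracted, quantile normalization, leaving out each array, an adjusted p below 0.10 and the mean over all probe sets of a gene.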

Additional observations from a re-analysis of the deposited data

How the results depend on the processing

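All 310 called probe sets for p107 loss in pRb-/- skin kept their direction under each alternative run on them. Where the scores of the compared arrays stay as they are, the difference cannot change, so the kept direction is no separate support. The mean over all probe sets of a gene was run on list medians only. The count of called probe sets, 310 as reported, moved under each alternative run on it. It was 0 with the moderated test, 0 with the pRb-/- arrays only, 137 with array medians subtracted (67 higher, 70 lower, 104 of them among the 310), 171 after quantile normalization (77 higher, 94 lower, 114 among the 310) and 389 higher and 625 lower at an adjusted p below 0.10. Leaving out 1 array gave between 0 and 17: 1 without either array of pRb-/-;p107-/-, 0 without either of pRb-/-;p107+/+, 1 without either of pRb+/+;p107-/-, and 17 without either of pRb+/+. Fewer arrays leave fewer degrees of freedom. The share of higher calls was 40% as reported. For the interaction the count of 0 became 39 higher and 68 lower at an adjusted p below 0.10 and lay between 0 and 1 when 1 array was left out.

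No pairing of same-numbered arrays was seen, with correlations of deviations between -0.131 and 0.105 over pairs of genotypes. These values cannot show whether same-numbered arrays shared a day or litter, and the labels name no pairing. With the replicate number as a block, 2 probe sets were called.

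Of 176 results for single named probe sets, 0 reversed under any alternative. Several alternatives, such as the moderated test and the block, leave the differences and list medians unchanged, so no reversal was possible there. Calls were lost by 91 with the moderated test and with the pRb-/- arrays only, by 89 with the block, by 51 with array medians subtracted and by 48 after quantile normalization, and the cause was not tested. Of 39 list medians, 0 reversed, and between 0 and 18 moved by more than the spread between duplicates. Scores cannot show how large a change in RNA was.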
